A study of Carassius gibelio with 26 samples.

Results

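Testis transcriptomes of 5 triploid gibel carp males of group 1 were compared with those of 6 triploid males of group 3, chosen by their sample titles, so that 11 of the 26 libraries of the study entered the comparison. Gibel carp (Carassius gibelio) is a cyprinid fish, and the study sampled testes of males 2 years old to look for genes tied to reproduction and sex determination. All 11 males were sex-reversed triploids (3n), bred by gynogenesis from eggs activated with sperm of the same or of another species, and which sperm was used for which male is not stated in the labels. Group 1 males were labelled 28 to 31 °C and descended from a female whose brood turned male only in warm water. Group 3 males were labelled 22 °C and descended from a female whose brood contained many males at that temperature as well. Mother and temperature thus differed together between the groups, and their effects cannot be told apart. In places, 5 triploid males of group 2, labelled 28 to 31 °C, and 10 diploid males, labelled 22 °C, are described beside them. Group 2 males came from the same kind of mother as group 3.

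In gynogenesis sperm starts the development of the egg but adds no genes to the embryo, so that a triploid female passes on her own genome and her brood is normally female. In many fish, warm water during early life can turn the gonad of a genetic female into a testis, and broods differ in the temperature this takes. The testis holds germ cells at successive steps from stem cell to sperm, with the somatic cells that nourish them and make hormones, and a bulk library averages over all of them. Fewer cells of a type and less RNA per cell cannot be told apart in such libraries.

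Counts were made on the genes of the related goldfish, whose identifiers could not be paired with gene names: 0 of the 62131 matched the gene table used here, and the files hold no names. Markers of testis, ovary or other cell types could therefore not be looked up, the labelled tissue was not checked, and genes are described by position, structure and level. Library totals ran from 22913600 to 26052012 counts in group 1 and from 20965100 to 27142412 in group 3. Library names hold a second number of unstated meaning, which was 4, 6, 5, 5 and 4 for group 1 replicates 1 to 5, and 12 for group 3 replicates 1 and 2 and 11 for the other 4. The names of group 1 also end in 31 for replicates 1 to 3 and in 28 for replicates 4 and 5. Broods of a gynogenetic female share her genome, so p-values here measure the spread between related males.

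Within group 1, a pair of males (replicates 1 and 2) differed from the other 3. Rank correlations of log2 CPM (counts per 1000000 counts, with libraries scaled by TMM factors) over the 39712 genes tested were 0.917 to 0.949 between these sets, and 0.990 in all 3 pairs among replicates 3 to 5. Replicates 1 and 2 correlated with each other at 0.979. Neither number in the library names divides the males this way, since replicate 3 ends in 31 and lay with the males ending in 28, and replicates 1 and 5, both with the second number 4, had the lowest correlation within the group. The 6 males of group 3 were alike, at 0.983 to 0.993. Against group 3, replicates 1 and 2 had correlations of 0.837 to 0.906, and replicates 3 to 5 had 0.935 to 0.951. Results are therefore given with and without replicates 1 and 2.

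**Figure D1:**
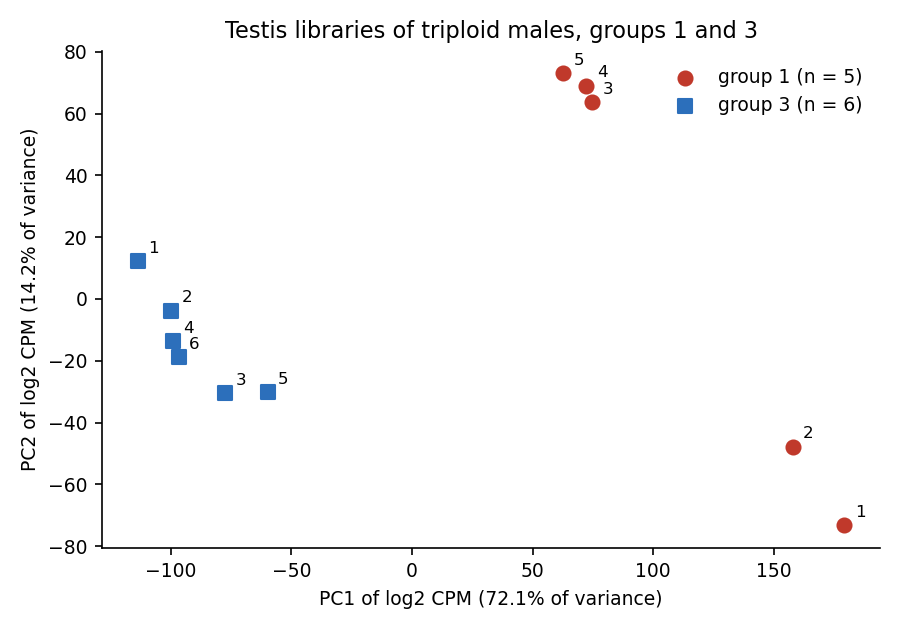
First and second principal components of log2 CPM of the tested genes, with 1 point per male and its replicate number. PC1, with 72.1% of the variance, places group 1 replicates 1 and 2 at 179.3 and 157.9, group 1 replicates 3 to 5 between 62.6 and 74.7, and the group 3 males between -113.7 and -59.8. PC2, with 14.2%, places group 1 replicates 1 and 2 at -73.2 and -47.8 and group 1 replicates 3 to 5 between 63.7 and 73.0. The group 3 males lie between -30.5 and 12.3 on PC2.

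The groups differed in most of the genes measured. Of 39712 genes tested, 26154 (65.9%) passed, 14911 (37.5%) higher and 11243 (28.3%) lower in group 1 than in group 3 (edgeR quasi-likelihood test, Benjamini-Hochberg adjusted p under 0.05). The genes that rose had a median log2 fold change of 0.97 (quartiles 0.64 and 1.41), and those that fell had a median of -0.71 (quartiles -1.06 and -0.46). The median over all tested genes was 0.09. Changes of at least 2-fold were called in 7111 genes that rose and 3183 that fell, changes of at least 8-fold in 509 and 226, and changes of at least 16-fold in 238 and 107. Without group 1 replicates 1 and 2 these numbers were 5744 and 2272 at 2-fold, 574 and 270 at 8-fold, and 277 and 133 at 16-fold. Large differences were thus more often higher than lower in group 1, on the TMM scale.

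Most calls were also made without the males that stood apart. Both fits share all the other males, so much of this agreement was built in. Without group 1 replicates 1 and 2, 13100 genes were higher and 11488 lower. Of the 14911 genes higher in the full set, 12258 (82.2%) were also called higher without these males, and of the 11243 lower genes 10327 (91.9%) were called lower, with 0 called in the opposite direction. Among genes called higher without them that were also tested with all males, replicates 1 and 2 lay on the same side of the group 3 mean in 96.0% and further from it than replicates 3 to 5 in 71.2%. Among genes called lower these shares were 96.9% and 72.4%. The median difference from group 3 was 1.17 in replicates 1 and 2 and 0.89 in replicates 3 to 5 for the first list (12885 genes), and -0.93 and -0.56 for the second (11372 genes), on the log2 scale. These lists were chosen on replicates 3 to 5 against the same group 3 males. In them, replicates 1 and 2 differed from group 3 mostly in the same direction, and by more. Genes in which only replicates 1 and 2 differed could not enter the lists. In replicates 1 and 2 and none of 3 to 5, 1105 genes lay at least 2-fold above every group 3 male and 3060 below. In all 5 males these numbers were 1377 and 603.

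Direction depended on how the libraries were scaled. With upper quartile normalization 18553 genes were higher and 7893 lower (70.2% of called genes higher, against 57.0% with TMM), and the median over all genes was 0.31. With library totals alone the counts were 22127 and 4823 (82.1% higher) with a median of 0.55. With the median-of-ratios factors of DESeq2 they were 13596 and 12633 (51.8% higher) with a median of 0.01. TMM factors were 1.470, 1.376, 1.057, 1.050 and 1.033 in group 1 replicates 1 to 5, against 0.7689 to 0.9749 in group 3. All 5 values of group 1 lay above all 6 of group 3.

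The difference followed the level of the gene. The tested genes were divided by mean log2 CPM into 4 bins of 9928. In the lowest bin, 57.1% were higher and 12.8% lower in group 1, with a median log2 fold change of 0.79. A gene could pass the count filter through 1 group alone, so this bin can hold genes kept for being high in that group. How many did so was not counted. The second bin had 51.7% higher and 15.8% lower (median 0.43), and the third 32.0% higher and 29.6% lower (median 0.00). In the highest bin, 9.42% were higher and 55.0% lower, and the median was -0.42. That median was -0.21 with upper quartile normalization, -0.50 with DESeq2's factors and 0.01 with library totals. The order of the bins was the same under each of these scalings, while the sign in the highest bin was not. A change of scaling moves all genes by nearly the same amount, so it could hardly change that order, which is no test. Bins by CPM per kilobase of exon gave like values, 59.0% higher and 11.4% lower in the lowest and 9.84% higher and 53.4% lower in the highest. Among the 500 genes with the most counts, 13 rose and 247 fell, and their median was -0.65 (-0.24 with library totals).

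**Figure D2:**
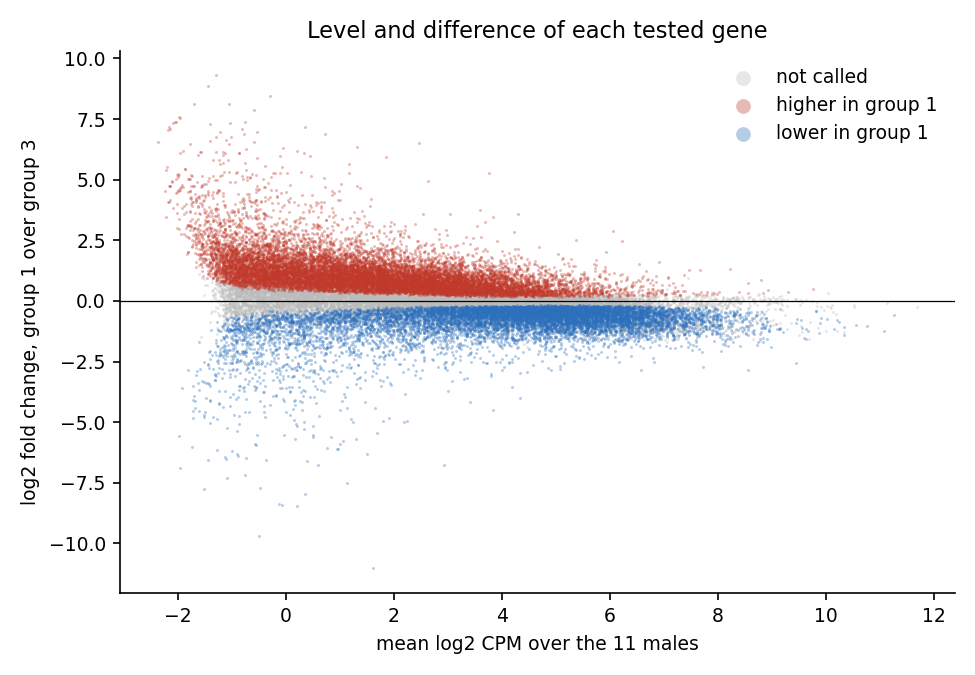
Log2 fold change of group 1 over group 3 against mean log2 CPM over the 11 males, with 1 point per tested gene, coloured by the edgeR call. Genes higher in group 1 (14911) lie mostly at low and middle levels, and genes lower in group 1 (11243) mostly at high levels.

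Each male of group 1 showed this shift. Against the mean of group 3, the median log2 difference of the lowest bin was 0.87, 0.86, 0.61, 0.70 and 0.57 in group 1 replicates 1 to 5. Group 3 males, each set against the other 5, ran from -0.06 to 0.17. In the highest bin the values were -0.68, -0.56, -0.30, -0.28 and -0.27 in group 1, against -0.14 to 0.07 in group 3. The groups did not overlap in either bin, and replicates 1 and 2 were the furthest from group 3 in both. Without these 2 males the bins still had medians of 0.64, 0.32, -0.04 and -0.32. Among group 3 males, replicate 5 had the highest value in the lowest bin and the lowest in the highest bin, and so lay nearest to group 1.

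**Figure D3:**
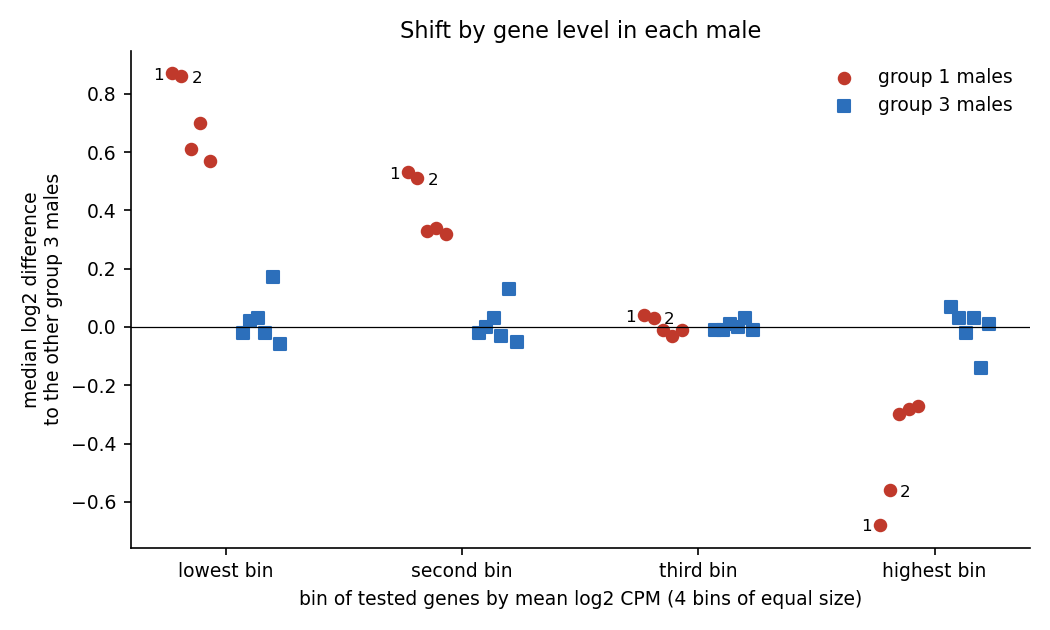
Median log2 difference of each male to the mean of the group 3 males (for a group 3 male, of the other 5), by bin of mean log2 CPM. Group 1 males lie between 0.57 and 0.87 in the lowest bin and between -0.68 and -0.27 in the highest, with replicates 1 and 2 labelled, and group 3 males lie between -0.14 and 0.17 in these bins.

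Counts were spread over more genes in group 1. The genes higher in group 1 held 23.5%, 20.6%, 14.5%, 14.2% and 13.4% of all counts in group 1 replicates 1 to 5, against 6.36% to 9.10% in group 3. The genes lower in group 1 held 36.8%, 40.7%, 43.2%, 44.5% and 43.7%, against 52.8% to 55.5%. These lists were chosen on the same counts, so the shares describe them and are no test. Of 7 measures with 1 value per library, not built from these lists, 6 differed between the groups. The measures were chosen with earlier results of these data known. They come from the same libraries and are not independent of each other. The number of genes that held 50% of the counts was 3609, 3274, 2567, 2585 and 2454 in group 1 and 1838 to 2389 in group 3, with no overlap (exact two-sided permutation test, adjusted p = 0.0061). At least 1 count was seen for 52436 ± 624 genes in group 1 (SD, n = 5) and 49633 ± 199 in group 3 (n = 6), again with no overlap (exact permutation adjusted p = 0.0061). With every library thinned to 20965100 counts these were 51973 ± 669 and 49134 ± 465 (exact permutation adjusted p = 0.0061). Single-exon genes took 2.08% ± 0.104 of counts in group 1 (n = 5) and 1.77% ± 0.0467 in group 3 (n = 6), and unplaced scaffolds 13.6% ± 0.0932 and 13.4% ± 0.0792 (exact permutation adjusted p = 0.0061 for each). The TMM factor differed as well (adjusted p = 0.0061, exact permutation). Total counts averaged 24323337 ± 1353055 in group 1 (n = 5) and 23957391 ± 2018247 in group 3 (n = 6), a difference within the spread of the males (adjusted p = 0.72, exact permutation test). The smallest unadjusted p that 5 against 6 males allow is 0.0043.

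In many genes the groups did not overlap at all. All 5 group 1 values lay above all 6 group 3 values in 9982 genes (25.1% of those tested), of which 9969 were called, and below them in 8384 genes (21.1%), of which 8254 were called. Among the 21346 genes whose values overlapped, 7931 were called. Without group 1 replicates 1 and 2 the genes above numbered 11229 (28.3%) and those below 9521 (24.0%). Fewer males make the condition easier to meet, so these numbers could hardly fall. The balance depended on scaling, since CPM from library totals placed 14760 genes above and 3342 below.

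Few genes had 0 counts in every male of a group while present in every male of the other. At 0 counts in all 6 group 3 males and at least 1 CPM in every group 1 male, there was 1 gene, on chromosome 31 from 7173407 to 7176919 (minus strand, 12 exons, goldfish annotation ASM336829v1). It stood at 1.83, 1.51, 1.37, 1.28 and 1.18 CPM in group 1 replicates 1 to 5. Against a floor of 3 counts over group 3 (0.0241 CPM) the gene was at least 59.5-fold higher in group 1. Of the other males of the study, 1 of 5 in group 2 (triploid, 28 to 31 °C, from the same kind of mother as group 3) and 2 of 10 diploid (2n) males had any count. The opposite pattern, 0 counts in group 1 and at least 1 CPM in each group 3 male, also held for 1 gene, ENSCARG00000004470, described below. At a minimum of 0.5 CPM there were 6 and 2 such genes, and without group 1 replicates 1 and 2 there were 3 and 5. Both changes loosen the rule, so the numbers could hardly fall. Genes with a few stray counts in the low group, such as the other 3 named below, are not in these counts. Floors and counting intervals cover counting error only.

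By the rule for named genes, the 2 highest and 2 lowest fold changes among called, non-overlapping genes are given by identifier. Their level had to reach 1 in the average log2 CPM of edgeR, which differs from the mean log2 CPM of the bins. By that mean ENSCARG00000001217 stood at -0.59, in the lowest bin. ENSCARG00000007873 (chromosome 36, 19312691 to 19323031, plus strand, 10 exons) rose in group 1. It had 9.68, 10.2, 10.2, 9.71 and 10.5 CPM in group 1 replicates 1 to 5, against 0, 0, 0.0928, 0, 0 and 0.0460 CPM in group 3 replicates 1 to 6. The 5 males of group 1 were nearly equal, and 4 of the 6 group 3 males had no count. With 1453 counts in group 1 and 3 in group 3, the ratio of group 1 to group 3 was 417 (95% exact counting interval 142 to 2024), and the log2 fold change was 8.43 ± 0.48 (SE, edgeR adjusted p = 1.2e-10). Diploid males carried it at 0.71 to 22.4 CPM (median 3.33, n = 10), whereas group 2 males had at most 0.101 CPM (n = 5), on a scale set over all 26 libraries.

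ENSCARG00000001217 (chromosome 2, 1481186 to 1487305, minus strand, 3 exons) also rose in group 1. Its values were 3.05, 3.54, 8.07, 10.5 and 8.99 CPM in group 1 replicates 1 to 5, against 0.0480, 0.0511, 0, 0.0491, 0 and 0 CPM in group 3 replicates 1 to 6. Replicates 1 and 2 were the lowest of group 1 and still far above group 3. The counts were 937 in group 1 and 3 in group 3, a ratio of 269 (95% exact counting interval 91.7 to 1306), with a log2 fold change of 7.86 ± 0.53 (SE, edgeR adjusted p = 1.2e-09). On the scale of all 26 libraries it stood at 2.49 to 12.1 CPM in diploid males (median 5.32, n = 10), and no count was seen in any of the 5 group 2 males.

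The gene with the lowest fold change, ENSCARG00000052354 (chromosome 30, 7821738 to 7832688, plus strand, 4 exons), was nearly absent from group 1. Group 1 replicates 1 to 5 had 0, 0.0616, 0.0414, 0 and 0 CPM, against 54.0, 48.2, 59.5, 56.3, 46.7 and 58.1 CPM in group 3 replicates 1 to 6. The counts were 3 in group 1 and 6714 in group 3, so that the ratio of group 3 to group 1 was 2600 (95% exact counting interval 889 to 12609). The log2 fold change of group 1 over group 3 was -11.02 ± 0.49 (SE, edgeR adjusted p = 5.7e-11). Group 2 males had 38.6 to 60.7 CPM (n = 5) and diploid males 0 to 22.6 CPM (median 9.56, n = 10), on the scale of all 26 libraries.

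ENSCARG00000004470 (chromosome 5, 3353699 to 3356034, plus strand, 3 exons) had no count in any group 1 male. Group 3 replicates 1 to 6 had 4.22, 4.60, 3.81, 4.12, 3.09 and 5.89 CPM. Against a floor of 3 counts over group 1 (0.0208 CPM), it was at least 207-fold lower in group 1 (edgeR adjusted p = 1.8e-07). Group 2 males had 3.41 to 5.52 CPM (n = 5), whereas diploid males had at most 0.361 CPM (n = 10), on the scale of all 26 libraries. Reads of gibel carp were counted on goldfish genes, and whether a sequence was missing or altered in some males, or its reads assigned to a near copy, was not tested for any of the 4 genes.

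**Figure D4:**
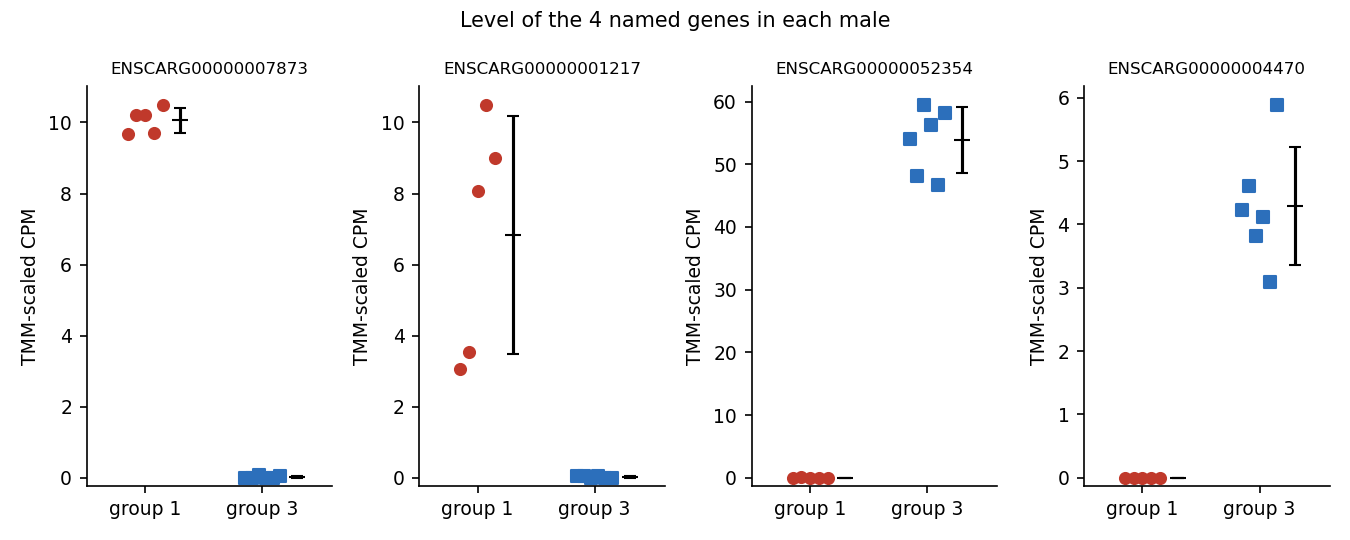
TMM-scaled CPM of the 4 named genes in each male, with group 1 left of group 3 and the mean ± SD beside the points. ENSCARG00000007873 and ENSCARG00000001217 reach 10.5 CPM in group 1 and stay under 0.1 CPM in group 3, and ENSCARG00000052354 and ENSCARG00000004470 reach 59.5 and 5.89 CPM in group 3 and stay under 0.1 CPM in group 1.

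Single males differed in how many genes left the range of the other group. Group 1 replicates 1 to 5 had 5353, 4364, 2741, 3140 and 2396 genes at least 2-fold above the highest group 3 male, and 5731, 4518, 1203, 1002 and 1140 genes at least 2-fold below the lowest. Group 3 males had 894 to 2204 genes at least 2-fold above every group 1 male and 2475 to 4042 below. In group 1 replicates 3 to 5, genes above the other group were over 2 times as many as genes below it, but in replicates 1 and 2 the genes below were slightly more numerous. All 5 group 1 males shared 1377 genes at least 2-fold above group 3 and 603 at least 2-fold below. Only replicates 1 and 2 showed this in 1105 genes above and 3060 below, and only replicates 3 to 5, all 3 of them, in 166 and 43. These counts are on the TMM scale, where replicates 1 and 2 had the largest factors (1.470 and 1.376). The balance of genes above and below can depend on scaling, and these counts are not given on other scales.

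**Figure D5:**
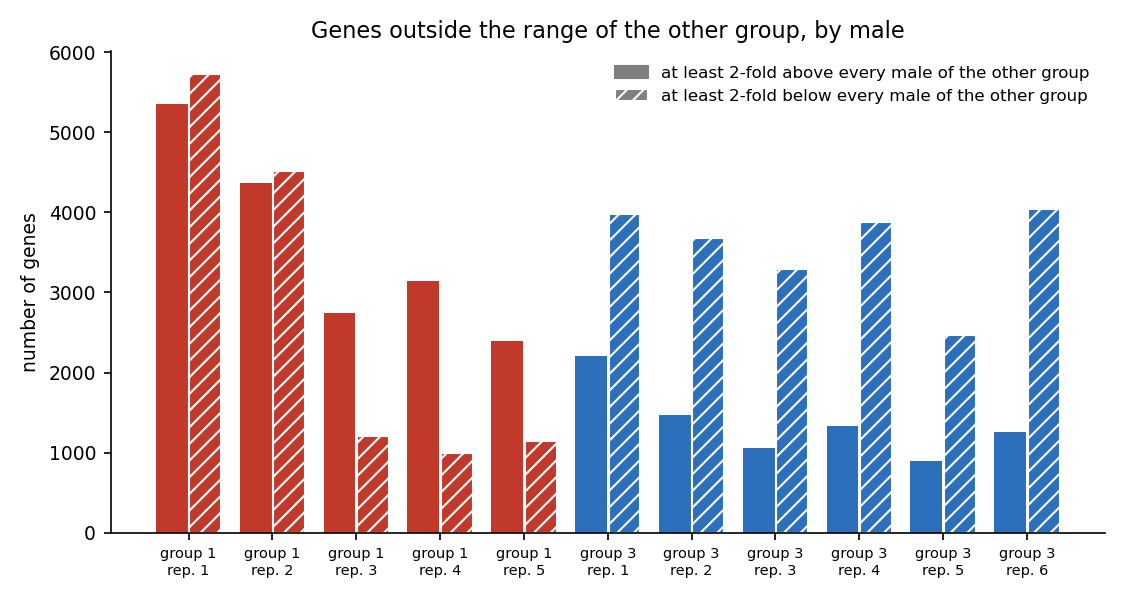
Number of tested genes at least 2-fold above (plain bars) or below (hatched bars) every male of the other group, for each male of group 1 and group 3, on the TMM scale. Group 1 replicates 1 and 2 have 4364 to 5731 genes in either direction, and group 1 replicates 3 to 5 have 2396 to 3140 above and 1002 to 1203 below.

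Males of group 1 were less alike than those of group 3. The SD of log2 CPM within the group had a median over genes of 0.29 in group 1 and 0.21 in group 3, and 68.4% of genes were more spread in group 1. Without replicates 1 and 2 the median was 0.15 in group 1, with 32.4% of genes more spread there than in group 3, where an SD of 3 values was set against an SD of 6.

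The warm males of group 2 were set beside these groups in a model of all 4 groups of the study. The genes called higher in group 1 against group 3 had a median log2 fold change of 0.93 for group 1 over group 3 and of 0.12 for group 2 over group 3 in that model (14910 genes tested there). For the genes called lower the medians were -0.74 and -0.08 (11243 genes). Both contrasts share the group 3 males. Of the called genes, 0 were called between group 2 and group 3 by edgeR, and 434 of the higher and 263 of the lower genes had an unadjusted p under 0.05 (2.91% and 2.34%, against 2.54% of all 42352 genes). All 5 group 2 males lay below all group 1 males in 57.0% of the genes higher in group 1, and above them in 69.2% of the lower genes. These genes were chosen on the values of group 1, and the shares over all genes were not counted, so the shares are no test. For the 10 diploid males these shares were 9.81% and 7.51%. A condition on all of 10 males is stricter than on all of 5, so the 2 sets of shares are not on a par. By bin of gene level, group 1 over group 3 had medians of 0.76, 0.39, -0.03 and -0.45 from the lowest to the highest bin, and group 2 over group 3 had 0.11, 0.06, -0.03 and -0.05. The spread in this test was pooled over all 4 groups, whose males were unequally alike. The share of 2.54% over all genes was below the 0.05 that no difference would give, so the test could miss differences. That 0 genes were called does not show that group 2 and group 3 were equal.

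The changed genes were spread over all chromosomes. The share of tested genes higher in group 1 ran from 30.6% on chromosome 25 to 43.1% on chromosome 13 over the 50 numbered chromosomes (median 37.7%), and the share lower from 20.6% on chromosome 47 to 32.8% on chromosome 10 (median 28.1%), beside 37.5% and 28.3% over all genes. Chromosome medians of the log2 fold change ran from -0.05 on chromosome 25 to 0.18 on chromosome 1, against 0.09 over all genes, and the lowest was 0.17 with upper quartile normalization. On chromosome 47 the median was 0.15 with all males and 0.05 without group 3 replicate 2. Without group 1 replicates 1 and 2 it was 0.16, the highest of the 50 chromosomes, which then ran from -0.08. On unplaced scaffolds 36.0% of 8194 tested genes were higher and 28.4% lower, and on the LG-named sequences 36.2% and 29.0% of 755.

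Some regions held a larger share of changed genes. In 901 windows of 1 Mb with at least 20 tested genes, the share higher in group 1 had a median of 37.5% (7.69% to 74.2%) and the share lower a median of 28.1% (5.00% to 65.0%). The highest share higher was on chromosome 16 from 2000001 to 3000000, where 23 of 31 genes rose and 5 fell, with a median log2 fold change of 1.06. The median difference of this window from the group 3 mean was 1.15, 1.19, 0.80, 0.83 and 0.77 in group 1 replicates 1 to 5, against -0.13 to 0.07 in group 3. On chromosome 27 from 29000001 to 30000000, 14 of 20 genes rose and 1 fell (median 0.74). The highest shares lower were on chromosome 8 from 3000001 to 4000000, where 13 of 20 genes fell and 5 rose (median -0.77), and on LG48F from 3000001 to 4000000, where 12 of 21 fell and 4 rose (median -0.71). In each of the 4 windows all 5 group 1 males lay on the same side of all 6 group 3 males, and the medians kept their sign without replicates 1 and 2 (0.76, 0.66, -0.63 and -0.39) and under upper quartile, DESeq2's and library-total scaling. These windows are the extremes of 901 and were given no test. They were picked by calls between these same males, so the separation and the kept sign follow largely from that choice.

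Large changes could lie side by side. Of the 509 genes at least 8-fold higher in group 1, 54 (10.6%) had another such gene as the next tested gene on either side. Of the 39203 other genes, 867 (2.21%) had such a neighbour. Of the 226 genes at least 8-fold lower, 19 (8.41%) had another of them next to it, as did 383 (0.970%) of the 39486 other genes. The longest runs held 3 genes. On chromosome 36 from 5648053 to 5677602, 3 genes summed to 31.6, 10.3, 15.8, 13.8 and 8.69 CPM in group 1 replicates 1 to 5, against 1.24 to 2.16 CPM in group 3. On scaffold QPKE01005375.1 from 93110 to 119691, 3 genes summed to 5.55 to 8.28 CPM in group 1, against 0.276 to 0.638 CPM in group 3. On scaffold QPKE01008129.1 from 9420 to 34207, 3 genes on the minus strand summed to 1.53 to 2.67 CPM in group 1, against 17.0 to 21.0 CPM in group 3. The groups did not overlap in any of the 3 runs, which follows largely from choosing genes with large changes between these same males. Neighbouring annotated genes can be parts of a single gene or near-identical copies, which was not checked.

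Gene structure moved with level. Of 1374 single-exon genes tested, 44.0% were higher and 20.5% lower in group 1 (median log2 fold change 0.31), and of 17945 genes with over 10 exons 36.6% were higher and 31.3% lower (median 0.03). Within a bin of level the single-exon genes were close to genes of 2 or more exons. In the lowest bin their medians were 0.67 and 0.80, in the second 0.35 and 0.43, in the third -0.06 and 0.00, and in the highest -0.37 and -0.42. In the lowest bin stood 725 of the 1374 single-exon genes. By exon length, from the shortest to the longest of 4 bins, 34.1%, 37.4%, 38.7% and 40.0% were higher and 28.2%, 27.1%, 28.3% and 29.6% lower.

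Of 37 mitochondrial features 15 were tested, with log2 fold changes from -0.62 to 0.89 (median -0.06). Of these, 1 was called higher and 2 lower, beside 37.5% and 28.3% of all tested genes. The feature at 991 to 1944 (plus strand) was higher in group 1, with 8.55, 17.4, 32.0, 12.8 and 23.8 CPM in replicates 1 to 5, against 8.10 to 11.9 CPM in group 3 (log2 fold change 0.89 ± 0.28 SE, edgeR adjusted p = 0.014). Replicate 1 overlapped group 3, and the others lay above it. The feature at 2017 to 3697 was lower, with 175, 240, 289, 196 and 287 CPM against 320 to 356 CPM in group 3 (-0.51 ± 0.15 SE, edgeR adjusted p = 0.0092). That at 14700 to 15221 on the minus strand was lower as well (-0.62 ± 0.19 SE, edgeR adjusted p = 0.013). Its level was low and the groups overlapped, at 1.54 to 3.55 CPM in group 1 and 3.04 to 5.04 CPM in group 3. The calls depended on scaling. With library totals 10 of the 15 features were higher in group 1 and 0 lower by edgeR, and the features called lower with TMM had adjusted p = 0.58 and 0.32. With upper quartile normalization 5 were higher and 2 lower, and with the factors of DESeq2 1 was higher and 2 lower. Mitochondrial features together took 0.834%, 1.11%, 1.1%, 0.95% and 1.01% of counts in group 1, against 0.781% to 0.901% in group 3 (exact permutation adjusted p = 0.02), with group 1 replicate 1 inside the range of group 3. The share was thus higher in group 1, while the median of single features on the TMM scale was near 0. Libraries were enriched for poly(A) transcripts, and capture of these features and their expression cannot be told apart.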

How the data were processed

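Testis RNA of 26 males was sequenced, and the 11 males of 2 triploid groups were analysed here. Per the labels' protocols, RNA was enriched for poly(A) transcripts and made into strand-specific paired-end libraries with molecular identifiers. Tools in the submitters' processing notes are STAR 2.7.3a, Subread 2.0 with featureCounts, cutadapt 4.3, Picard 2.25.6 and, for quality reports, MultiQC 1.10.1 and FastQC. The deposited table holds raw counts of read pairs per gene and, per the file headers, was made with featureCounts 2.0.6 over exons in reverse-stranded mode on goldfish annotation ASM336829v1. Removal of duplicates by these identifiers is not described in the labels or headers. Exon lengths are those of the deposited table.

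Calls came from the quasi-likelihood test of edgeR 4.0.16 (R 4.3.3) on the counts of these 11 males, with TMM scaling, a filter for genes with enough counts (filterByExpr, minimum 10), robust dispersions and adjustment by Benjamini-Hochberg over all 39712 genes tested. For these calls, a spread pooled over all 4 groups, whose males were unequally alike, was used only as an alternative. The test on the group 2 males given in the Results did rest on that pooled spread. Standard errors came from the F statistic. Library measures were compared with exact permutation tests adjusted over 7 measures (scipy 1.17.1). Log2 CPM used a prior count of 2. Replicate numbers did not pair males: 0 of 5 pairs had correlated deviations over 0.1. Libraries of a group differed by more than sampling noise (lowest chi-square per gene 4.84). Named genes are the 2 highest and 2 lowest fold changes among called genes with no overlap between groups. They had at least 1 in edgeR's average log2 CPM, whereas the bins used the mean of log2 CPM over the males. Alternatives included DESeq2 1.42.0, limma-voom (limma 3.58.1), other scalings, filters and sets of males. The groups, lists and tests were chosen with earlier results of these data known. Lists of marker genes by symbol had 0 matched members. The test was tested on simulated data with few changed genes and no shift by gene level, so its outcome does not bear on scaling.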

Additional observations from a re-analysis of the deposited data

How the results depend on the processing

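Over 27 alternatives the count of called genes stayed within 1.5 times of 26154, except for a test against a change of 1.5-fold (11024 called, 7697 higher and 3327 lower). With library totals 4823 genes were lower. The median over all genes was 0.01 with DESeq2 or its size factors, 0.55 with library totals, 0.31 with upper quartile normalization, 0.21 with no filter, 0.04 with a stricter filter and 0.03 without group 1 replicates 1 and 2. All 4 named genes kept their call under all 27 alternatives, which follows largely from choosing them for extreme fold changes between these males. Leaving out each male gave 24130 to 26507 called genes, 13637 to 15145 higher and 10283 to 11362 lower. The difference in total counts, never called, then ran from -232512 to 1002950. With the replicate number as a block, which dropped group 3 replicate 6, 20730 genes were called (12144 higher, 8586 lower). No male correlated best with its own number. The spread pooled over 4 groups gave 23921 genes.

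Genes with group 1 below group 3 numbered 3342 on CPM from library totals. Genes at 0 in group 3 and present in group 1 numbered 3 with library totals, 6 at 0.5 CPM, 0 at 2 CPM, 3 without replicates 1 and 2 and 1 to 2 leaving out each male. The opposite pattern had 2 at 0.5 CPM, 5 without replicates 1 and 2 and 1 to 4 leaving out each male. The 4 came without group 1 replicate 1. A lower minimum or fewer males loosen the rule for either pattern, so these numbers could hardly fall. Upper quartile normalization moved the chromosome medians to 0.17 to 0.41, with 0.38 on chromosome 47, where leaving out group 3 replicate 2 gave 0.05. Depth limits the genes at 0: a library with 0 counts allows a level of up to 3 counts of its total. The older dispersion estimate of edgeR, the bins by level per kilobase, the other scalings of bins and windows, and the separation and spread without replicates 1 and 2 were chosen after seeing the data.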

Other observations

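A pair of neighbouring genes on chromosome 15, from 8489673 to 8510545 (both on the plus strand), was chosen after its values were seen. Together they stood at 0.523, 0.801, 0.579, 0.916 and 1.22 CPM in group 1 replicates 1 to 5, against 115, 90.9, 69.0, 80.9, 65.8 and 67.7 CPM in group 3 replicates 1 to 6. The log2 fold changes of group 1 over group 3 were -6.77 and -6.30. Group 2 males had 81.0 to 89.5 CPM and diploid males 0.406 to 34.4 CPM (median 12.9), on the scale of all 26 libraries.

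A pair on chromosome 11, from 5953058 to 6085505, also chosen after its values were seen, was high in group 1, at 13, 10.7, 9.10, 8.43 and 9.45 CPM in replicates 1 to 5, against 0.246 to 0.882 CPM in group 3. Group 2 males had 0.554 to 1.03 CPM and diploid males 0.488 to 4.42 CPM (median 1.6), on the scale of all 26 libraries. In both pairs the warm group 2 males lay within or near the range of group 3, though on a different scale. That group 1 lay outside it follows largely from choosing genes with large changes between these groups.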
